A study of Mus musculus with 8 samples.

Results

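The *Pcdhg* cluster encodes the gamma protocadherins, cell-adhesion proteins by which neurons tell their own processes from those of other cells. Each gene of the cluster has its own large first exon and its own promoter, and its transcript is spliced onto constant exons that all members share. The genes of the a and b types are chosen in a stochastic way, a few per neuron, and DNA methylation of the promoter and first exon is part of how the unchosen ones are kept silent. *Pcdhgc3* is a C-type gene, and it is expressed broadly rather than by such a choice. SMCHD1, a chromatin protein of the SMC family, is known to bind the clustered protocadherins and to keep them silent.

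The CpG islands described here are those of *Pcdhgb2* and *Pcdhgb5*, which lie in variable first exons, and that of *Pcdhgc3*. They were taken by position on GRCm38, and they are 3 of the 7461 islands with a methylation level among 13840 listed islands. The assay was RRBS, or reduced representation bisulfite sequencing. It digests the genome at CCGG, keeps short fragments and reads the methylation of their CpGs after bisulfite conversion, which favours CpG-rich sequence. Primary mESC lines, that is, embryonic stem cells taken directly from male mouse embryos, were differentiating into neuromesodermal progenitors (NMPs) and were collected on day 2 or day 2.5.

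There were 8 libraries in 4 groups. *Smchd1* wt lines carried the genotype *Smchd1*[fl/+] and *Smchd1* matΔ lines carried *Smchd1*[del/+], with the deletion inherited from the mother, so that every line kept an intact allele from its father. There were 2 lines of each genotype, and each line was sequenced on both days. By the methods of the study, mothers were of the C57BL/6 strain and fathers of the Castaneus strain, and *Smchd1* had been deleted in the oocytes of the mothers of the matΔ lines with Zp3-Cre, which is driven by an oocyte promoter. The labels do not say that the 2 lines of a genotype came from separate litters, so the spread given below is the spread between lines. A level averages over the cells of a library and over both alleles, and fewer methylated cells and less methylation per cell cannot be told apart. No read counts accompany the levels, so their depth is unknown and their counting error could not be given.

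Over all islands with a level, the mean of a library was 1.41 to 1.62% and its median 0.267 to 0.347%. The means of *Smchd1* matΔ line 1 were the highest on both days. Pearson's r between 2 libraries, across islands, was 0.939 to 0.963.

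Both b-type islands sat inside coding sequence, well downstream of their gene's start. The *Pcdhgb2* island (chr18:37691459-37691947, 489 bp) began 1631 bases after the start of exon 1 and ended 422 bases before the end of that exon. The *Pcdhgb5* island (chr18:37732640-37733134, 495 bp) began 1631 bases after the start of its exon 1 as well, and ended 425 bases before the exon's end. The *Pcdhgc3* island (chr18:37805999-37807484, 1486 bp) instead covered the start of its gene. It began 411 bases upstream of the coding transcript, and 937 of its bases were coding sequence of exon 1, which also overlaps the antisense transcript *BC037039*. The contrast of variable-exon with C-type islands is therefore also a contrast of exon body with gene start, and these cannot be told apart with 3 islands.

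The islands also differed in how many places RRBS could cut. The *Pcdhgb2* island held 49 CpGs and 3 CCGG sites, the *Pcdhgb5* island 60 CpGs and 2 CCGG sites, and the *Pcdhgc3* island 116 CpGs and 13 CCGG sites. Over the 7461 islands with a level, the median was 86 CpGs and 11 CCGG sites. The level of each b-type island thus rests on few fragments. GC content was 65.6% for *Pcdhgb2*, 66.9% for *Pcdhgb5* and 59.7% for *Pcdhgc3*, below the median of 69.6% over islands with a level. A strict core consensus of the CTCF motif, searched on both strands, was found in 0 of these 3 islands. It was found in 1 of the 23 islands listed across the clustered protocadherins and in 1.02% of all islands with a level. With so rare a match, its absence from 3 islands does not show that they lack CTCF sites.

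**Figure D1:**
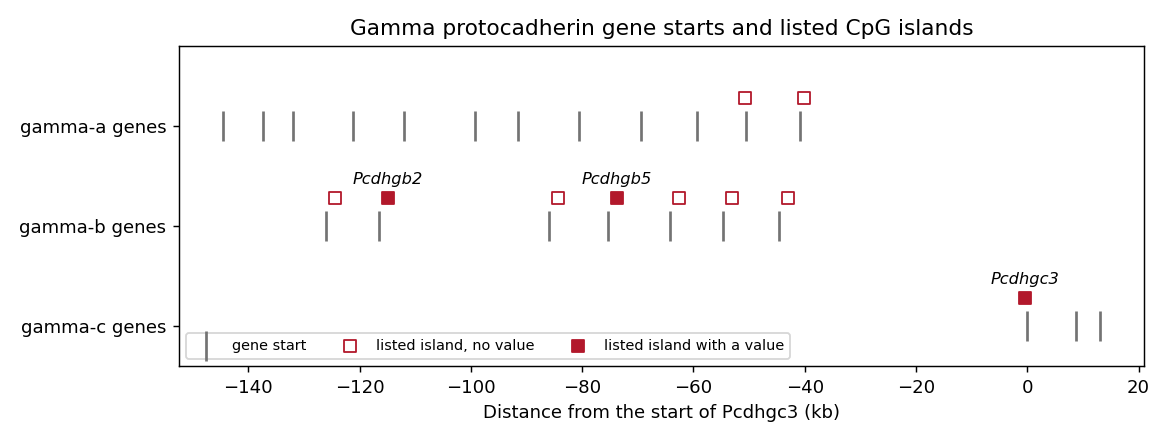
Starts of the gamma protocadherin genes (bars) and their listed CpG islands (squares; filled where a methylation level was given) by distance in kb from the start of *Pcdhgc3*, with the a, b and c genes on separate rows. Of 7 b-type islands only those of *Pcdhgb2* and *Pcdhgb5* are filled, and the *Pcdhgc3* island is the sole listed island of the c-type genes.

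The 3 islands are the part of the clustered protocadherins that the table could show. Across the alpha, beta and gamma clusters, which hold 57 genes, 23 islands were listed, and the other 20 had no level in any library. Of those 20, 3 had no start of a clustered gene within 2 kb and are left out of the counts below. The alpha cluster had 10 listed islands for 13 genes, at *Pcdha1*, *Pcdha3*, *Pcdha4*, *Pcdha5*, *Pcdha9*, *Pcdha12*, *Pcdhac1* and *Pcdhac2*, and 0 of them had a level. The beta cluster had 0 listed islands for 22 genes. The gamma cluster had 10 listed islands for 22 genes, and the 7 without a level were those of *Pcdhgb1*, *Pcdhgb4*, *Pcdhgb6*, *Pcdhgb7*, *Pcdhgb8*, *Pcdhga11* and *Pcdhga12*. All 7 b-type genes had a listed island, at nearly the same place in the first exon, starting 1592 to 1693 bases after the gene's start and 459 to 495 bp long. Their sequence held 43 to 60 CpGs and 1 to 3 CCGG sites. *Pcdhgb2* and *Pcdhgb5* therefore did not stand apart from the other b-type islands in position or length. Over the whole table, islands without a level were shorter, with a median of 568 bp against 806 bp, and held a median of 7 CCGG sites.

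The b-type first exons are close copies of each other, which bears on where a read could be placed. The *Pcdhgb2* island was 98.4% identical to the *Pcdhgb1* island, 94.1% to *Pcdhgb8*, 92.2% to *Pcdhgb4*, 89.1% to *Pcdhgb5*, 87.7% to *Pcdhgb6* and 76.6% to *Pcdhgb7*. The *Pcdhgb5* island was closest to that of *Pcdhgb6*, at 96.4%. Against the *Pcdhgc3* island the identity was 29.8% and 30.1%. That island is 1486 bp long, and columns without a partner base count against identity. These 2 values therefore reflect the difference in length and cannot show how alike the sequences are. Reads were 75 bases long by the methods, so the 75-base stretches that start at CCGG sites were taken from the reference, converted from C to T and compared with all other places of the protocadherin region. Of 6 such stretches of the *Pcdhgb2* island, 3 were identical to a stretch elsewhere and the remaining 3 differed at 1 base. Of 4 stretches of the *Pcdhgb5* island, 0 were identical to another place, 3 differed at fewer than 3 bases, and the fewest mismatches ran from 1 to 4. The 25 stretches of the *Pcdhgc3* island differed from every other place at 13 bases or more. How many reads of other b-type genes were counted at the *Pcdhgb2* and *Pcdhgb5* islands was not tested. Reads from the paternal Castaneus allele were also aligned to the C57BL/6 reference, and the effect of this on near-identical exons was not tested.

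**Figure D2:**
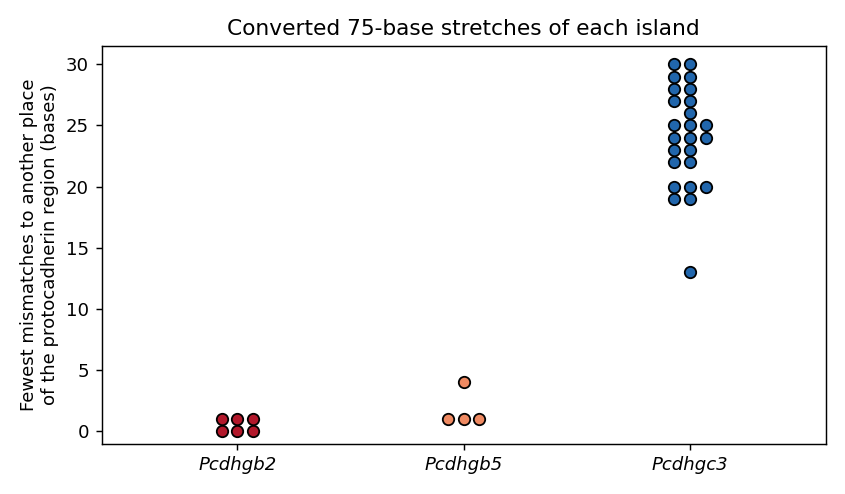
Fewest mismatches, in bases, between each converted 75-base stretch of an island and any other place of the protocadherin region; each point is 1 stretch. The *Pcdhgb2* stretches lie at 0 or 1 and the *Pcdhgb5* stretches at 1 to 4, while those of *Pcdhgc3* lie at 13 to 30.

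The variable-exon islands were partly methylated and the C-type island was close to unmethylated. In *Smchd1* wt cells the *Pcdhgb2* island was methylated at 10.3 and 10.3% on day 2 in lines 1 and 2, and at 8.11 and 14.8% on day 2.5. In *Smchd1* matΔ cells it was at 34.4 and 15.2% on day 2, and at 12 and 20.7% on day 2.5. Day 2 of *Smchd1* matΔ line 1 stood above all other libraries, and the genotypes overlapped on day 2.5 but not on day 2, when 12.3% of all islands were higher in both *Smchd1* matΔ libraries than in both *Smchd1* wt libraries.

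The *Pcdhgb5* island was methylated at 9.09 and 4.29% in lines 1 and 2 of *Smchd1* wt on day 2, and at 3.48 and 13.8% on day 2.5. In *Smchd1* matΔ cells it was at 8.33 and 22.4% on day 2, and at 13.3 and 18.7% on day 2.5. Here the highest library was day 2 of *Smchd1* matΔ line 2, and the genotypes overlapped on both days. The *Pcdhgb2* and *Pcdhgb5* islands did not rank the libraries in the same way, and Pearson's r between them over the 8 libraries was 0.19, a description of libraries that share lines.

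The *Pcdhgc3* island was listed at 0 in 5 of 8 libraries. The others were 1.36% in *Smchd1* wt line 2 on day 2, and 0.833% in *Smchd1* matΔ line 1 on both days. The genotypes overlapped on both days.

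**Figure D3:**
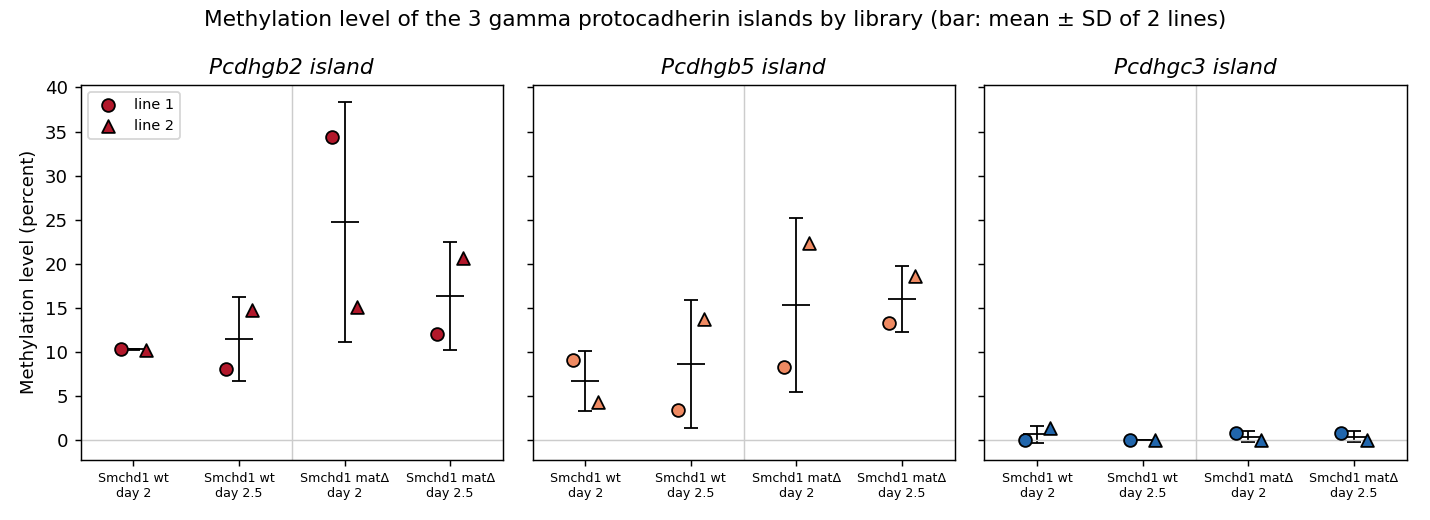
Methylation level in percent of the *Pcdhgb2*, *Pcdhgb5* and *Pcdhgc3* islands in each library, by genotype and day; circles are line 1, triangles line 2, and bars the mean ± SD of 2 lines. Points of *Pcdhgb2* and *Pcdhgb5* range from 3.48 to 34.4% and those of *Pcdhgc3* from 0 to 1.36%.

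Among all islands with a level, the mean of the *Pcdhgb2* island over 8 libraries, 15.7%, ranked 119 of 7461, and that of the *Pcdhgb5* island, 11.7%, ranked 150. The *Pcdhgc3* mean of 0.379% ranked 4082, and 45.3% of islands were lower. A mean of at least 10% was found for 172 islands, or 2.31% of the total. Both b-type islands were above 3% in every library, as were 228 islands in all. Position in the gene went with level across the genome. Of 6736 islands that hold a transcript start, as that of *Pcdhgc3* does, the median mean was 0.390% and 48 reached 10%. Of 206 islands over coding exon more than 1 kb from any transcript start, as those of *Pcdhgb2* and *Pcdhgb5* are, the median was 4.03% and 58 reached 10%, or 28.2%. Within that class, 42 islands had a higher mean than *Pcdhgb2* and 50 a higher mean than *Pcdhgb5*, so the b-type islands were in the upper part of their class but not at its top.

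The islands with a level that flank the clustered genes were low. The island of *Hars2*, a mitochondrial histidyl-tRNA synthetase gene 146.7 kb before the cluster, had a mean of 0.524% and a range of 0 to 3.57%. Beyond the other end, the island of the formin gene *Diaph1* had a mean of 0.20% and that of the histone deacetylase gene *Hdac3* 0.468%. Each of these flanking islands holds a transcript start, and the median over all such islands was 0.390%. They are therefore no comparison for islands inside an exon, such as those of *Pcdhgb2* and *Pcdhgb5*.

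Within a library the 3 islands come from the same DNA and the same conversion. In all 8 libraries the *Pcdhgb2* island exceeded the *Pcdhgc3* island, by 8.11 to 33.5 percentage points, and so did the *Pcdhgb5* island, by 2.92 to 22.4 points. The mean of both b-type islands minus the *Pcdhgc3* island was 9.72 and 5.91 points in lines 1 and 2 of *Smchd1* wt on day 2, and 5.79 and 14.3 points on day 2.5. In *Smchd1* matΔ it was 20.5 and 18.8 points on day 2, and 11.8 and 19.7 points on day 2.5. The group means were 7.81 ± 2.69 and 10.04 ± 6.003 points for *Smchd1* wt on days 2 and 2.5, and 19.6 ± 1.25 and 15.8 ± 5.55 points for *Smchd1* matΔ (SD, n = 2 lines each). The lines of *Smchd1* matΔ on day 2 were close in this mean because their gaps at its members had opposite signs, line 2 minus line 1 being -19.2 points at *Pcdhgb2* and 14.0 points at *Pcdhgb5*. On day 2 the genotypes did not overlap in this mean or at *Pcdhgb2* alone, as for 12.3% of single islands, but they overlapped at *Pcdhgb5* alone, and on day 2.5 they overlapped in the mean. No test is given for this score, because its members were chosen with the results known. The *Pcdhgb2* island exceeded the *Pcdhgb5* island in 6 of 8 libraries, with differences from -7.20 to 26.0 points, so the order of these neighbours was not stable over libraries.

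**Figure D4:**
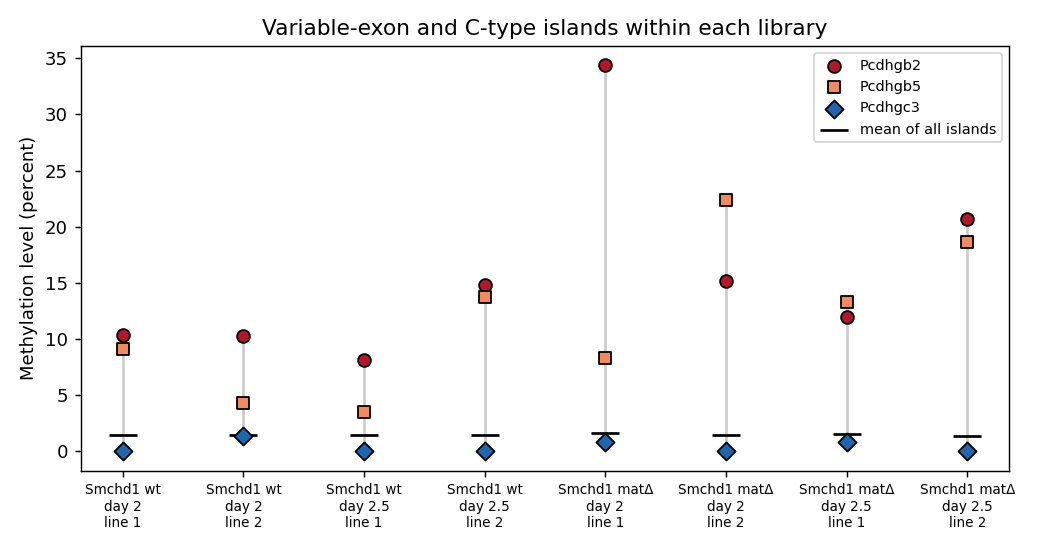
Methylation level in percent of the *Pcdhgb2* (circle), *Pcdhgb5* (square) and *Pcdhgc3* (diamond) islands within each of the 8 libraries, with the mean over all islands as a black bar. In every library the *Pcdhgc3* diamond lies below both b-type islands, by 2.92 to 33.5 percentage points.

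The study asked whether maternal SMCHD1 affects DNA methylation in these cells, and compared *Smchd1* matΔ with *Smchd1* wt. The matΔ lines also carried a deleted *Smchd1* allele themselves. No heterozygous lines from oocytes with SMCHD1 were among the libraries. Loss of maternal SMCHD1 and heterozygosity of the cells therefore cannot be told apart. On day 2 the *Pcdhgb2* island averaged 24.8 ± 13.6% in *Smchd1* matΔ and 10.3 ± 0.0625% in *Smchd1* wt (SD, n = 2 lines). The difference of 14.5 points had an SE of 7.26 and did not pass the test (limma adjusted p = 0.968). The *Pcdhgb5* island averaged 15.3 ± 9.91% against 6.69 ± 3.398%, a difference of 8.65 points (SE 5.68, limma adjusted p = 0.968). The *Pcdhgc3* island averaged 0.417 ± 0.589% against 0.682 ± 0.964%, a difference of -0.265 points (SE 0.564, limma adjusted p = 1.0). None of the 3 islands passed, and none had an unadjusted p under 0.05 in this or any of the comparisons below. Of 7196 islands tested, 0 passed the adjusted threshold of 0.05 (0%) and 303 had an unadjusted p under 0.05 (4.21%). With the libraries taken singly, 12.3% of all islands were higher in every *Smchd1* matΔ library than in every *Smchd1* wt library on day 2, and *Pcdhgb2* was among them while *Pcdhgb5* and *Pcdhgc3* were not.

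By size, the *Pcdhgb2* difference on day 2 stood near the edge of the table. Only 10 islands had a larger positive difference, and 13 a larger one in either direction. For *Pcdhgb5* the counts were 32 and 42. Most islands were near 0, and 84.2% of the 7196 differed by less than 1 point, so size alone favours partly methylated islands. Ranked by limma p instead, *Pcdhgb2* was 519 and *Pcdhgb5* 1266 of 7196. The *Pcdhgb2* difference leaned on *Smchd1* matΔ line 1, the library with the highest mean over all islands, and without it the difference was 4.85 points. The *Pcdhgb5* difference leaned on *Smchd1* matΔ line 2, without which it was 1.65 points.

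On day 2.5 the *Pcdhgb2* island averaged 16.3 ± 6.14% in *Smchd1* matΔ and 11.5 ± 4.74% in *Smchd1* wt, a difference of 4.88 points (SE 7.26, limma adjusted p = 0.998). The *Pcdhgb5* island averaged 16 ± 3.77% against 8.61 ± 7.26%, a difference of 7.39 points (SE 5.68, limma adjusted p = 0.963). The *Pcdhgc3* difference was 0.417 points (SE 0.564, limma adjusted p = 0.996). The *Pcdhgb2* difference was smaller than the gap between the lines of either genotype, 6.71 points in *Smchd1* wt and 8.69 in *Smchd1* matΔ. The *Pcdhgb5* difference was smaller than the gap of 10.3 points between the *Smchd1* wt lines, but larger than that of 5.33 between the *Smchd1* matΔ lines. Over all islands, 0 of 7196 passed the adjusted threshold, 309 had an unadjusted p under 0.05 (4.29%), and 11.4% were higher in every *Smchd1* matΔ library, which none of the 3 islands were.

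**Figure D5:**
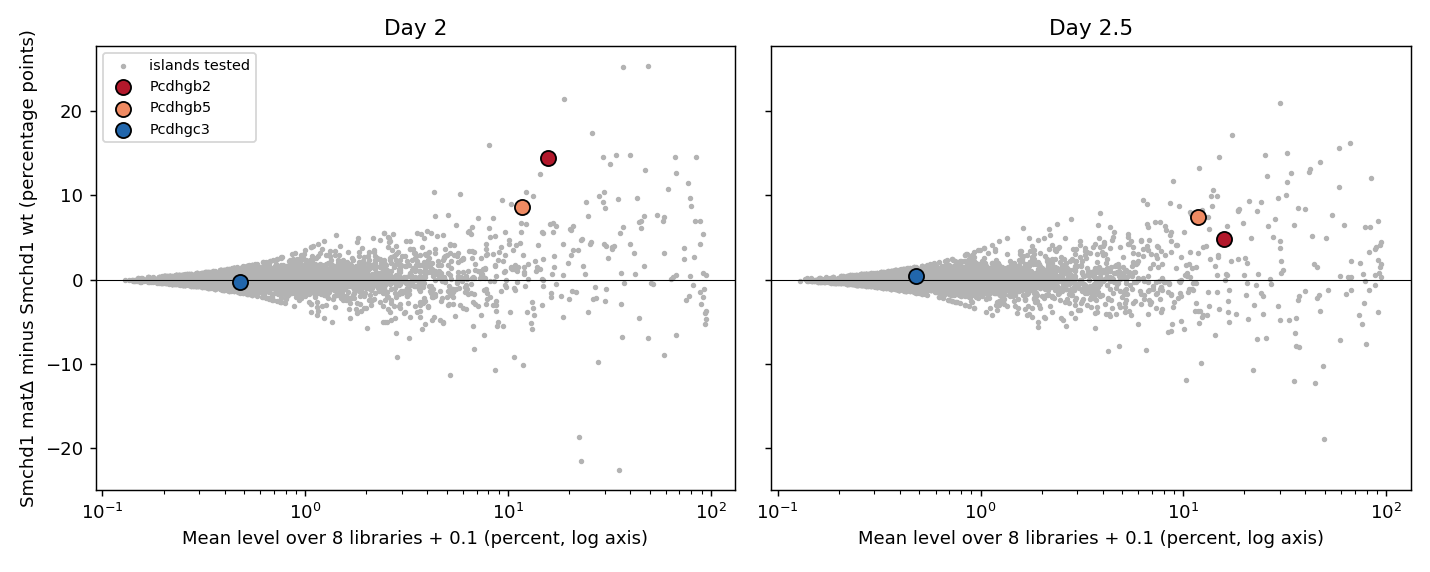
Difference of *Smchd1* matΔ from *Smchd1* wt in percentage points against the mean level over 8 libraries plus 0.1 (percent, log axis) for the islands tested (grey), on day 2 and day 2.5, with the 3 gamma protocadherin islands in colour. *Pcdhgb2* lies at 14.5 and 4.88 points, *Pcdhgb5* at 8.65 and 7.39 points, and *Pcdhgc3* at -0.265 and 0.417 points.

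Averaging the days of each line gives 1 value per line. For *Pcdhgb2* the line means were 9.23 and 12.5% in *Smchd1* wt and 23.2 and 17.9% in *Smchd1* matΔ, a difference of 9.67 points (SE 3.96, limma adjusted p = 0.854). For *Pcdhgb5* they were 6.28 and 9.02% in *Smchd1* wt and 10.8 and 20.5% in *Smchd1* matΔ, a difference of 8.02 points (SE 3.88, limma adjusted p = 0.854). On this measure the genotypes did not overlap at either b-type island, and neither difference passed the test. The *Pcdhgc3* line means were 0 and 0.682% against 0.833 and 0%, and the difference was 0.0758 points (SE 0.424, limma adjusted p = 0.989). Of all islands, 14.4% had both *Smchd1* matΔ line means above both *Smchd1* wt line means. The count past the adjusted threshold was 0, and 375 islands had an unadjusted p under 0.05 (5.21%).

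Levels of this size varied widely between lines elsewhere too. Over the 133 islands with a mean of 10 to 50%, the median absolute difference between the lines of a group was 6.65 points in *Smchd1* wt and 8.30 in *Smchd1* matΔ on day 2, and 5.56 and 7.54 on day 2.5. For *Pcdhgb2* the lines differed by 0.0884, 19.2, 6.71 and 8.69 points in the same order, and 130, 17, 57 and 57 of the 133 islands differed by more. The close match of the *Smchd1* wt lines at *Pcdhgb2* on day 2 was thus at the low end of the class, and the gap between the *Smchd1* matΔ lines toward its high end. For *Pcdhgb5* the lines differed by 4.81, 14.0, 10.3 and 5.33 points.

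The genotype differences of the same 133 islands were compared with those of the members. Their median genotype difference was 2.55 points on day 2, with 94 higher in *Smchd1* matΔ, and 0.767 points on day 2.5, with 76 higher. Without *Smchd1* matΔ line 1 these medians were 0.0832 and -0.724 points, with 67 and 59 higher, and the part of that line's higher overall mean in the shift was not tested. On day 2, 7 of the 133 islands had a larger difference than *Pcdhgb2* and 21 a larger one than *Pcdhgb5*, and on day 2.5 the counts were 42 and 30. Among the 206 coding-exon islands away from a start, the median difference was 0.510 points on day 2 and 0.0340 on day 2.5, and without *Smchd1* matΔ line 1 it was -0.0768 and 0 points.

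The genotype difference was not shown to change between the days. From day 2 to day 2.5 it moved by -9.58 points at *Pcdhgb2* (SE 10.3, limma adjusted p = 0.910), by -1.27 points at *Pcdhgb5* (SE 8.03, limma adjusted p = 0.996) and by 0.682 points at *Pcdhgc3* (SE 0.797, limma adjusted p = 0.921). Over all islands, 0 passed and 336 had an unadjusted p under 0.05 (4.67%).

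The days themselves moved the lines in opposite directions. From day 2 to day 2.5 the *Pcdhgb2* level moved by -2.24 and 4.56 points in lines 1 and 2 of *Smchd1* wt, and by -22.4 and 5.54 points in those of *Smchd1* matΔ. The *Pcdhgb5* level moved by -5.61 and 9.46 points in *Smchd1* wt and by 5.0 and -3.69 points in *Smchd1* matΔ. Within each genotype, at each b-type island, 1 line was higher on day 2.5 and the other lower. In *Smchd1* wt the mean change was 1.16 points at *Pcdhgb2* (SE 7.26), 1.93 points at *Pcdhgb5* (SE 5.68) and -0.682 points at *Pcdhgc3* (SE 0.564). In *Smchd1* matΔ it was -8.42 points at *Pcdhgb2* (SE 7.26), 0.657 points at *Pcdhgb5* (SE 5.68) and 0 at *Pcdhgc3*. The limma adjusted p of these changes was at least 0.935. Over all islands 0 passed in either genotype, and 293 islands in *Smchd1* wt (4.07%) and 317 in *Smchd1* matΔ (4.41%) had an unadjusted p under 0.05.

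Other protocadherins, which lie outside the clusters and have no variable first exons, were compared with the gamma islands. Of 12 non-clustered protocadherin genes, 7 had a listed island with a start within 2 kb, and 4 islands had a level. The highest was that of *Pcdh8* (chr14:79768454-79771419), with a mean of 2.05%, against means of 15.7% for *Pcdhgb2* and 11.7% for *Pcdhgb5*. Its single libraries ran from 0 to 3.85%, and the lowest *Pcdhgb5* library was 3.48%, so these ranges overlapped. The largest genotype difference on day 2 was -0.210 points, at *Pcdh1* (limma adjusted p = 1.0), and on day 2.5 it was -1.39 points, at *Pcdh7* (limma adjusted p = 0.960). Of the 4 islands, 0 passed in any of the 6 comparisons. The islands of *Pcdh8*, *Pcdh1* and *Pcdh7* hold a transcript start, a class with a median mean of 0.390%. The b-type islands instead lie inside a coding exon, so gene type and position in the gene cannot be told apart in this comparison.

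Genes that act on clustered protocadherin promoters, among them CTCF, cohesin, the DNA methyltransferases, the TET enzymes and SMCHD1 itself, were close to unmethylated at their islands. All 21 genes had a listed island, and 17 islands of 15 genes had a level, each with a mean under 1%. The highest was 0.770%, at *Wiz*, which encodes a zinc finger protein that works with the H3K9 methyltransferase G9a. The island at the start of *Smchd1* (chr17:71474749-71475973) showed the largest difference on day 2, at 0 and 2.63% in lines 1 and 2 of *Smchd1* wt and 0.327 and 0% in *Smchd1* matΔ, a difference of -1.15 points (SE 0.7996, limma adjusted p = 0.968). The largest on day 2.5 was 0.480 points, at *Tet3*, which oxidises methylated cytosine (limma adjusted p = 0.998). Of the 17 islands, 0 passed in any comparison and 0 had an unadjusted p under 0.05 for the genotype on either day. Expression was not measured in these libraries.

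Islands elsewhere that ranked the libraries most like each member were sought among the 300 islands with a mean of at least 5%, by Pearson's r over the 8 libraries, as a description. For *Pcdhgb2* they were those of *Zbtb45* (chr7:13007637-13008222, r = 0.921), *Proser2* (r = 0.852) and *Gm6579* (r = 0.840), all over coding exon. For *Pcdhgb5* they were those of *Celsr1* (chr15:86031209-86031677, r = 0.830), *Slc48a1* (r = 0.707) and *Mir219b* (r = 0.677). The *Celsr1* island was at a far higher level, with a mean of 90.8%. For *Pcdhgc3*, whose values were mostly 0, they were those of *Tomm20* (r = 0.910), *Speg* (r = 0.839) and *Nxnl1* (r = 0.832). For some of these islands the transcript start lay beyond the 2 kb used elsewhere to assign an island to a gene. The distance was 29116 bases for *Proser2*, 6445 for *Gm6579*, 3541 for *Nxnl1* and 2100 for *Celsr1*. Those names therefore give a position, and the island need not belong to the gene. No island was shared by the lists of the b-type islands. The highest of 300 values of r over 8 libraries are large by selection alone, and a link to any of these genes was not tested.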

How the data were processed

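RRBS data of 8 libraries were grouped by the labels (genotype, day, line). Reads were trimmed with Cutadapt 1.15, aligned to GRCm38.p6 with Bismark 0.20.0 and summarised over CpG islands in SeqMonk for islands of more than 10 reads in all libraries, as the methods state. The authors deposited 1 percent methylation level for each island in each library, without scaling the libraries to each other. A table of *Hox* islands, with the authors' means, was not used. The read minimum is the sole statement of depth, so the precision of a level is unknown.

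Percent methylation of 7196 islands (265 with the same value in all libraries were left out) was analysed in R 4.3.3 with limma 3.58.1. The model had a mean per group, a variance trend and 4 residual degrees of freedom; two-sided moderated p-values were adjusted by Benjamini-Hochberg over the whole table, at a threshold of 0.05. The averaged comparison used line means, with 2 residual degrees of freedom. The step was tested on simulated data. Islands were annotated from GENCODE vM21, and sequence features were computed on the reference in Python 3.11.15 (Biopython 1.88, pandas 2.3.3, numpy 2.4.6), with figures in matplotlib 3.10.9.

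The members and gene lists were chosen with earlier results of these data known. The text names the 3 members, the other listed islands of clustered protocadherins, the 3 islands most like each member, and in each list the gene with the highest mean and with the largest genotype difference on each day. SD is over lines.

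The line number marks the same cell line on both days and pairs the days within a genotype. The correlation of the line differences between the days, across islands, was -0.0628 for the wt lines and 0.197 for the matΔ lines. Between genotypes the same number names different lines. The alternatives were log2(percent + 1), minimum means of 1 or 5%, no filter, libraries scaled to the same mean, robust moderation, no variance trend, only the libraries of a comparison, a block for line, a 5 kb window and leaving out each library.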

Additional observations from a re-analysis of the deposited data

How the results depend on the processing

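The genotype differences of the *Pcdhgb2* and *Pcdhgb5* islands kept their direction under every alternative run. This held on day 2, on day 2.5 and averaged over the days. Most alternatives leave these differences as they are and change only their SE or p, so they could not have changed the direction. It could change only on the log2(percent + 1) scale, after scaling, or when a library of the comparison was left out. Of 276 alternative values of the members' differences, 0 passed the adjusted threshold. The direction changed, or the difference became 0, in 19 of the 276. All of these were at *Pcdhgc3*, in the change of the genotype difference between days or in a day difference. The day difference of *Pcdhgc3* in *Smchd1* matΔ was 0 in the main fit, so it had no direction to change. Depth could not be weighed, and with 2 lines per group the size of a difference moved with each library. With a library left out, the day 2 difference ran from 4.85 to 24.1 points at *Pcdhgb2*, from 1.65 to 15.7 at *Pcdhgb5* and from -0.947 to 0.417 at *Pcdhgc3*. The day 2.5 differences ran from 0.539 to 9.23, from 2.25 to 12.5 and from 0 to 0.833 points, and the averaged ones from 7.04 to 12.3, from 3.18 to 12.9 and from -0.341 to 0.492 points. The unadjusted limma p of the averaged *Pcdhgb2* difference was under 0.05 in 6 of 12 alternatives, where the smallest adjusted p was 0.771. For the averaged *Pcdhgb5* difference it was 0.0476 with a block for line number (limma adjusted p = 0.907). The other unadjusted p under 0.05, at *Pcdhgb2* or *Pcdhgb5*, came from fits that left a lone library or line in a group. The change of the genotype difference ran from -19.2 to 0.0325 points at *Pcdhgb2*, from -8.28 to 5.74 at *Pcdhgb5* and from 0 to 1.36 at *Pcdhgc3*, and on the log2(percent + 1) scale it was 0.0313 at *Pcdhgb5*. Day differences ran from -2.19 to 4.51, from -3.21 to 7.06 and from -1.36 to 0 points in *Smchd1* wt, and from -18.0 to 1.19, from -6.35 to 7.67 and from -0.417 to 0.417 in *Smchd1* matΔ. Within libraries, the mean of the b-type islands stayed above *Pcdhgc3* under each alternative, but none of these alternatives could have reversed it. Scaling and the log2 scale keep the order of the islands within a library. Leaving out a library leaves the others as they were.

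The count of islands past the threshold was 0 in 69 of 96 alternatives. With islands of 1 value in all libraries kept, it was 9 and 1 for the genotype on days 2 and 2.5, 4 for its change between days, and 2 for the days in each genotype. Leaving out a library gave 0 to 95 and 0 to 121 for the genotype on days 2 and 2.5, 0 to 117 for the change, and 0 to 118 and 0 to 98 for the days in *Smchd1* wt and *Smchd1* matΔ. The lone library of a group then adds no spread of its own, and 91.0% of those calls were islands whose kept libraries did not differ within any group. With a replicate block for the line, the count was 0 in each comparison, and the paired fit of the days, where the number marks a cell line, changed no call. After scaling, the *Pcdhgb2* level in *Smchd1* wt on day 2 was 10.5%. In an alternative chosen after seeing the data, leaving out *Smchd1* matΔ line 1, the median difference was -0.724 points over islands of 10 to 50% on day 2.5, and -0.0768 and 0 points over coding-exon islands on days 2 and 2.5.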
